A study of Mus musculus with 13 samples.

Results

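The genes of the BPI-fold and demilune cell proteins were followed through development of the mouse submandibular gland. The members are the 7 genes Bpifa2, Bpifb2, Bpifa1, Bpifb1, Dcpp1, Dcpp2 and Dcpp3, taken by symbol from the 23364 genes listed in every sample, and 5 of the 7 reached 1 FPKM (fragments per kilobase of transcript, scaled to the reads of the sample) in at least 1 sample. RNA was sequenced from whole submandibular glands of C57BL/6 mice in 13 samples covering 6 ages, 3 samples at E14.5 and 2 at every later age (E16.5 and E18.5 embryos, P5 pups, 4wk and 12wk adults). Glands of 3 animals were pooled for an E14.5 sample and glands of 2 animals for the later embryonic samples, sex was not determined in embryos and P5 pups, and the 4wk and 12wk animals were male. No genotype or treatment separated the groups, so the comparisons were those between neighbouring ages, and neighbouring comparisons share samples. The 7 genes were chosen by their FPKM in these samples over the 6 ages. Their levels and changes are therefore a description, without p-values.

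Proteins with a BPI fold are related to bactericidal/permeability-increasing protein, which binds the lipopolysaccharide of bacteria, and most of the family is secreted onto moist epithelia. Bpifa2 encodes parotid secretory protein, a major protein of mouse parotid saliva that is also made by the immature submandibular gland. Bpifa1 and Bpifb1 encode secreted proteins of the upper airways, and Bpifb2 is a relative encoded in the same gene cluster. The Dcpp genes encode demilune cell and parotid proteins, secreted products named for the serous demilunes of the sublingual gland and for the parotid gland.

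Reads on genes, computed from the steps between low FPKM values, were between 5817293 in a 4wk sample and 48314162 in a P5 sample, so that a gene of 1 kilobase gained 0.0207 to 0.172 FPKM with each read. Some libraries stood apart within their ages. Replicate 1 of E14.5 had 142 FPKM of the cartilage collagen gene Col2a1 against a mean of 3.45 in the other E14.5 samples, and replicate 2 of 12wk had 6360 FPKM of the salivary amylase gene Amy1 against 625 in replicate 1. Brown fat genes were higher in replicate 1 of 4wk, with Ucp1 at 106 FPKM against 0 in replicate 2, and the adipocyte markers Adipoq, Plin1 and Cidec summed to 82.8 and 2.63 FPKM at 4wk and to 194 and 51.8 FPKM at P5. Without replicate 1 of 4wk the P5 to 4wk log2 fold change of Bpifa2 given later was -5.70 and its step to 12wk 4.31, and the steps of Dcpp3 were -0.37 and -6.10. The 4 genes that mark submandibular acini (Aqp5, Bhlha15, Slc12a2, Prol1) were above 0 at every age. They summed to 38.3 to 54.2 FPKM at E14.5 and to 79747 to 81497 FPKM at 4wk. The secreted product gene Prol1 carried almost all of the 4wk sum (mean 80043 FPKM), where Bhlha15 had a mean of 159 FPKM. Because RNA came from whole glands, fewer cells of a type and less RNA per cell cannot be told apart.

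The 3 Dcpp genes are near copies of each other, which sets how well short reads can separate them. They lie on the + strand in the order Dcpp1, Dcpp2, Dcpp3 (mm9 chr17:24017843-24019820, chr17:24035689-24037754 and chr17:24054425-24056408), each with 4 exons, of which 3 hold coding sequence. The coding sequences are 516, 516 and 513 bases long and encode 171, 171 and 170 residues. Dcpp1 and Dcpp2 differ at 32 of 516 aligned bases (93.8% identity), Dcpp1 and Dcpp3 at 32 of 513 (93.8%), and Dcpp2 and Dcpp3 at 21 of 513 (95.9%). The following 90 bases of coding sequence in exon 4, read from the mm9 genome, are the gap-free stretch of that exon in which the 3 genes differ most, at 17 positions, shown in capitals.
Dcpp1 (chr17:24019531-24019620, + strand): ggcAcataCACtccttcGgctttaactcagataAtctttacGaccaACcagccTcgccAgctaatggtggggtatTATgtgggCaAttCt
Dcpp2 (chr17:24037466-24037555, + strand): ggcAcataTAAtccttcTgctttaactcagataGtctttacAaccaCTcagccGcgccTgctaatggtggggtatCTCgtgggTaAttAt
Dcpp3 (chr17:24056119-24056208, + strand): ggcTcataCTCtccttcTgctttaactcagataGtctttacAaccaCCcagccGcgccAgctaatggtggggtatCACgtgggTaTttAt
A read that starts in such a stretch meets several differing bases. Some other stretches match exactly between the copies. Windows were given the length of the reads, 50 bases. Of the windows, 46.3% in Dcpp1, 33.5% in Dcpp2 and 36.5% in Dcpp3 were also found at another place in the genome. These places were the other Dcpp genes. Since the authors dropped reads that aligned to more than 1 place, such windows could add no reads to the deposited Dcpp values. With up to 2 mismatches the shares rose to 65.5%, 76.3% and 65.8%. Of the Bpifa2 windows, 0.108% were found elsewhere exactly and 0.861% with up to 2 mismatches, and for Bpifb2 and Bpifb1 none were found under either setting, of 1681 and 1650 windows.

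The sequences before the gene starts are more alike than the coding sequences. Over the 250 bases before the RefSeq start (GRCm38.p6), the Dcpp promoters were 97.1% to 98.0% identical in pairs. The last 100 of these bases are printed for the 4 abundant members, because they are the members whose levels moved most, with the letters TATAA in capitals.
Dcpp1 (chr17:23880776-23880875, + strand): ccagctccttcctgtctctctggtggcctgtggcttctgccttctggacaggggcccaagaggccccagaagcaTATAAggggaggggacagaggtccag
Dcpp2 (chr17:23898622-23898721, + strand): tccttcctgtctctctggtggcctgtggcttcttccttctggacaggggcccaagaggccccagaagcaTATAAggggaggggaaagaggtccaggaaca
Dcpp3 (chr17:23917358-23917457, + strand): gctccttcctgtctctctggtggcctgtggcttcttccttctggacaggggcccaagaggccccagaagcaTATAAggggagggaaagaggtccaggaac
Bpifa2 (chr2:154008176-154008275, + strand): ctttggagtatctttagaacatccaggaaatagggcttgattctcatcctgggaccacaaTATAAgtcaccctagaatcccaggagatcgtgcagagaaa
TATAA, searched on both strands, began 26 bases before the start of Dcpp1, 31 before Dcpp2, 29 before Dcpp3 and 40 before Bpifa2. It was also found 29 bases before the start of Bpifa1, a gene with almost no reads here, and in none of the 250 bases before Bpifb2 or Bpifb1. Of 32851 mouse promoters, 5.38% held TATAA on either strand within the last 40 bases before the start and 22.8% within 250 bases. Within 250 bases, AGGAAG was present in the 3 Dcpp promoters and that of Bpifa1 (29.5% of all promoters), ACAAT in those of the 3 Dcpp genes, Bpifa2 and Bpifa1 (27.7%), and CAGCTG (13.001%) and CATATG (3.46%) in none of the 7. These matches are descriptions of letters, and overlapping matches on the 2 strands count as 1 promoter.

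Bpifa2 covered the widest range of the 4 BPI-fold members. Its FPKM were 5.45, 15.3 and 11.6 for E14.5, 787 and 1134 for E16.5, 18019 and 26530 for E18.5, 29423 and 29524 for P5, 714 and 567 for 4wk, and 3770 and 33795 for 12wk. No sample of one age overlapped with the neighbouring ages, and the 12wk samples lay on either side of those at E18.5 and P5. In both E18.5 samples Bpifa2 had the highest FPKM of all genes, and in both P5 samples the second highest, with 2.83% and 2.84% of the reads on genes. The mean rose 89.1 times from E14.5 to E16.5 (log2 fold change 6.43, SE 0.70, on the log2(FPKM + 1) scale used throughout) and a further 23.2 times to E18.5 (4.53, SE 0.77). The step from E18.5 to P5 was 0.43 (SE 0.77). The SE of this step was 0.40 without either 12wk library. From P5 to 4wk the mean was 46.0 times lower (log2 fold change -5.53, SE 0.77), a larger change than the median of all tested genes, -0.53.

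The level of Bpifa2 at 12wk rests on 2 libraries that differ 8.97 times. Against 4wk the log2 fold change was 4.15 (SE 0.77), 5.73 with replicate 2 as the only 12wk sample and 2.56 with replicate 1 as the only one. Both libraries were thus above both 4wk libraries, while the size of the difference depends on the library. In order of the means the ages ran P5, E18.5, 12wk, E16.5, 4wk and E14.5, and the 12wk samples lay on either side of those of E18.5, its neighbour above in that order, and above those of E16.5, its neighbour below (SD 21231 FPKM around a mean of 18782, n = 2).

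**Figure D1:**
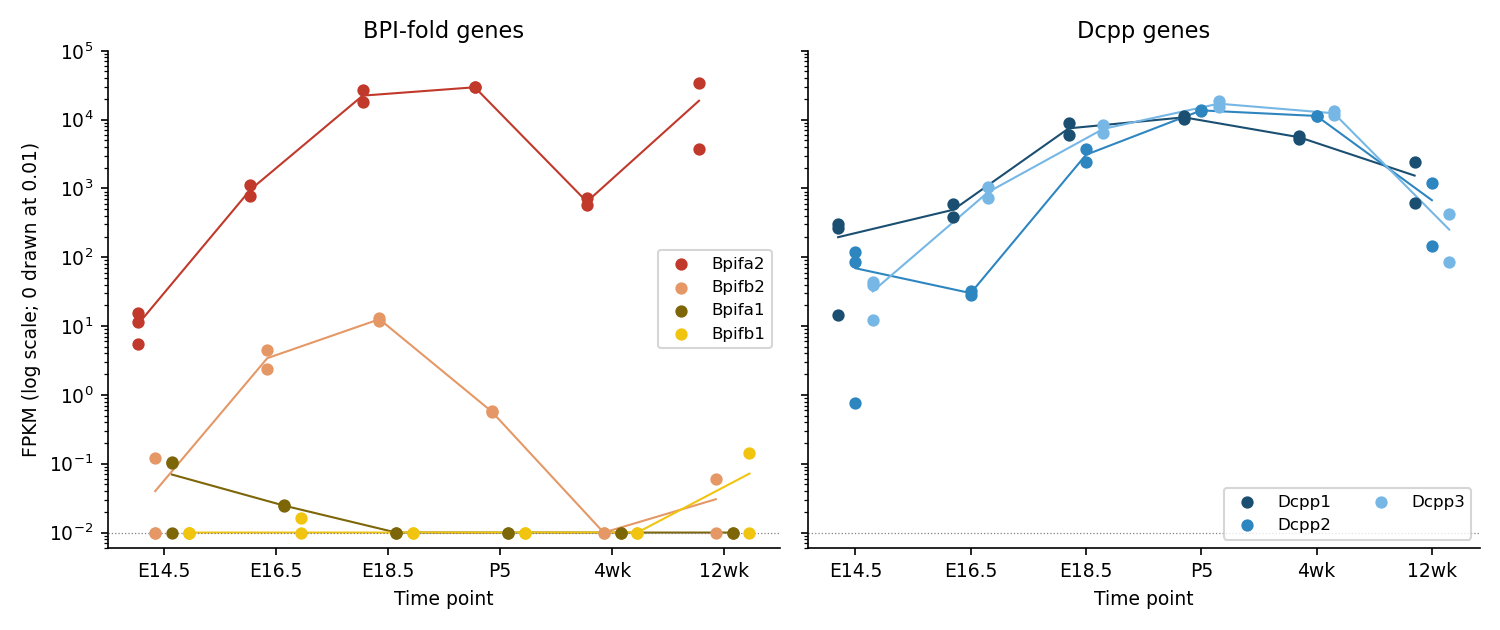
FPKM of the 4 BPI-fold genes (left) and the 3 Dcpp genes (right) on a log scale, by time point, with each sample as a point and the mean as a line, and values of 0 drawn at 0.01. Bpifa2 sits between 18019 and 29524 at E18.5 and P5 and at 567 to 714 at 4wk, whereas the Dcpp genes are still between 5266 and 13111 at 4wk.

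Bpifb2 was a gene of late gestation at a far lower level. Its FPKM were 0.120, 0 and 0 for E14.5, 2.34 and 4.49 for E16.5, 13.3 and 11.9 for E18.5, 0.562 and 0.589 for P5, 0 and 0 for 4wk, and 0 and 0.0610 for 12wk. The E18.5 samples were above all others, without overlap. The log2 fold change was 2.05 (SE 0.19) from E14.5 to E16.5 and 1.66 (SE 0.21) from E16.5 to E18.5. At P5 the mean was 21.8 times lower than at E18.5 (log2 fold change -3.11, SE 0.21). Over the same step the log2 fold change of Bpifa2 was 0.43 (SE 0.77). A count of 0 in the 4wk libraries allows up to 3 reads, 0.298 and 0.218 FPKM, which is under the P5 values.

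Bpifa1 and Bpifb1 were at or near 0 in the submandibular gland. Bpifa1 had 3 reads in each of E14.5 replicates 2 and 3 (0.107 and 0.102 FPKM) and 1 read in each E16.5 sample (0.0250 and 0.0243 FPKM), with none in the other 9 samples. Bpifb1 had 1 read in E16.5 replicate 1 (0.0161 FPKM) and 7 reads in 12wk replicate 2 (0.144 FPKM), with none in the other 11 samples. At 3 reads the detection limit of Bpifa1 ran from 0.0562 FPKM in a P5 sample to 0.467 FPKM in a 4wk sample, so lower levels were not detectable at this depth. Neither gene passed the filter of 1 FPKM in at least 1 sample, and neither entered the fit.

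The 4 BPI-fold members lie in a cluster of 13 annotated BPI-fold genes on the + strand of mm9 chr2:153700781-154146382, with Bpifb2 first (chr2:153700781-153721006), Bpifa2 in the middle (chr2:153834001-153841815), and Bpifa1 (chr2:153968616-153974955) and Bpifb1 (chr2:154016554-154046105) after it. Only Bpifa2, Bpifb2, Bpifb4 and Bpifb5 reached 1 FPKM in a sample. Bpifb4 was highest at P5 (mean 1.27 FPKM) and E18.5 (1.19 FPKM), and Bpifb5 at E16.5 (0.985 FPKM). Of the genes between Bpifb2 and Bpifa2, Bpifb6, Bpifb3 and Bpifa6 had their highest means at E18.5, as Bpifb2 did. These means were 0.185, 0.503 and 0.208 FPKM. Bpifb4 also lies there and had its highest mean at P5. Bpifa3, Bpifa5 and Bpifb9a were listed at 0 in all 13 samples. At 4wk, in the shallowest libraries, 12 of the 13 genes were at 0 and Bpifa2 had a mean of 641 FPKM.

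**Figure D2:**
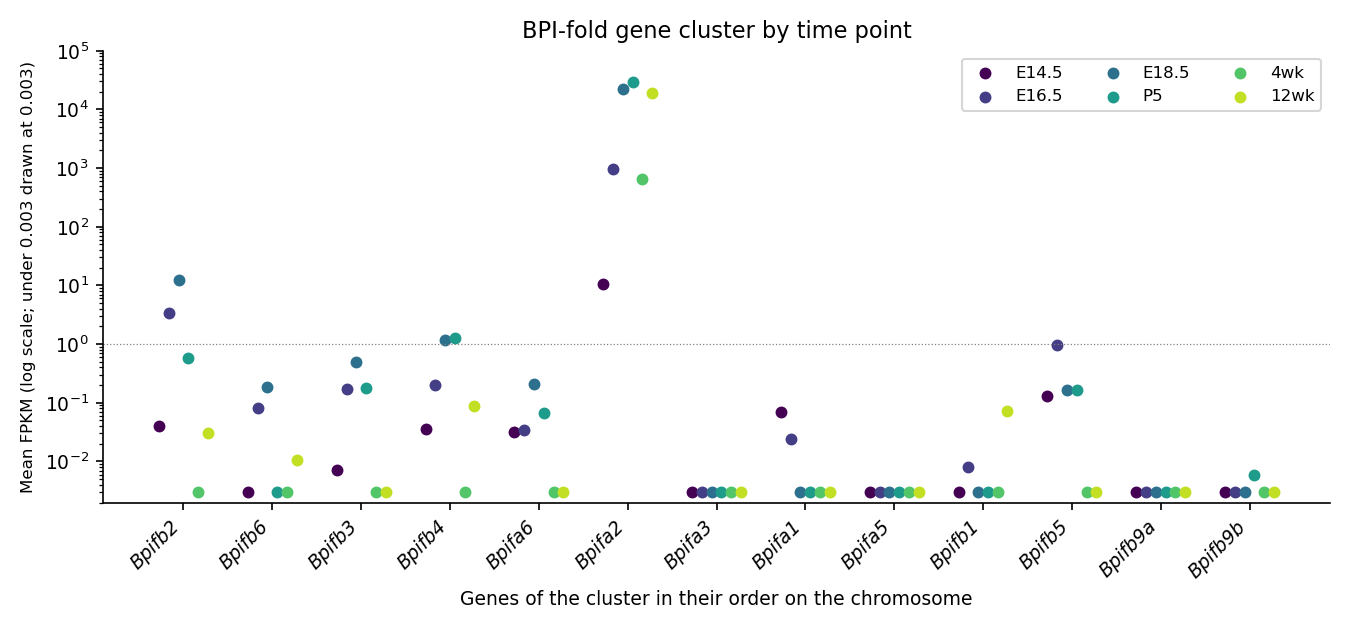
Mean FPKM on a log scale for the 13 BPI-fold genes of the chromosome 2 cluster, in their order on the chromosome, with 1 point per time point and means under 0.003 drawn at 0.003. Bpifa2 stands above every other gene of the cluster at each of the 6 ages, and at E18.5 the next gene is Bpifb2 with a mean of 12.6 FPKM.

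Dcpp1 was present from the earliest age. Its FPKM were 14.46, 304 and 268 for E14.5, 600 and 381 for E16.5, 5978 and 8934 for E18.5, 10220 and 11339 for P5, 5266 and 5803 for 4wk, and 614 and 2459 for 12wk. The mean was highest at P5, 1.95 times lower at 4wk and then 3.60 times lower at 12wk. The log2 fold change from E16.5 to E18.5 was 3.93 (SE 1.14), and those from P5 to 4wk (-0.96) and from 4wk to 12wk (-2.17) had the same SE. After median-of-ratios rescaling the P5 to 4wk value of Dcpp1 was -0.29.

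Dcpp2 was low up to E16.5. Its FPKM were 0.764, 120 and 86.6 for E14.5, 28.3 and 31.9 for E16.5, 2402 and 3763 for E18.5, 13292 and 13911 for P5, 11154 and 11418 for 4wk, and 146 and 1202 for 12wk. The E14.5 samples spread on both sides of the E16.5 samples, and the mean of FPKM was lower at E16.5 (69.2 and 30.1) although the log2 fold change was 0.23 (SE 1.45). From E16.5 to E18.5 the mean rose 102 times (log2 fold change 6.60, SE 1.58), and at P5 it was 4.41 times higher again. The P5 and 4wk levels were close, with a log2 fold change of -0.27 (SE 1.58), and at 12wk the mean was 16.8 times lower than at 4wk (-4.75, SE 1.58).

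Dcpp3 had the highest deposited FPKM of the 3 genes at P5 and 4wk. Dcpp3 kept this lead after allowance for windows found exactly elsewhere, but not for those within 2 mismatches, as given with the shares. Its FPKM were 12.4, 44.0 and 39.5 for E14.5, 1040 and 722 for E16.5, 6328 and 8331 for E18.5, 15143 and 18896 for P5, 11595 and 13111 for 4wk, and 86.4 and 418 for 12wk. The ages did not overlap. The mean rose 27.5 times from E14.5 to E16.5 (log2 fold change 4.90, SE 0.61) and 8.32 times to E18.5 (3.07, SE 0.67). From 4wk to 12wk it was 49.0 times lower (-6.01, SE 0.67), the largest drop of the 5 members in the fit at that step. From P5 to 4wk its log2 fold change was -0.46 (SE 0.67). After rescaling by median-of-ratios factors it was 0.22, and that of Dcpp2 0.41, so the sign of the P5 to 4wk step of these genes depends on the scaling.

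The SE of Dcpp1 and Dcpp2 depended on 1 E14.5 library. In replicate 1 of E14.5, Dcpp2 was at 0.764 FPKM (9 reads) and Dcpp1 at 14.46 FPKM (172 reads), against means of 103 and 286 FPKM in the other E14.5 samples. At E14.5 a level of 10 FPKM was reached by 7390 genes in 1 or more samples. None of them had a larger range on the log2 scale than Dcpp2, and 6 had a larger range than Dcpp1. Without that library the log2 fold change from E14.5 to E16.5 was 0.74 (SE 0.54) in place of 2.15 (SE 1.04) for Dcpp1, and -1.73 (SE 0.72) in place of 0.23 (SE 1.45) for Dcpp2, a change of direction. Dcpp3 and Bpifa2 kept their direction, at 4.34 and 6.04.

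The same library moved with other tissues and with gland genes. The cartilage genes Col2a1, Matn1 (23.8 against 0.0389 FPKM) and Acan (12.4 against 0.151 FPKM) were higher in it. Spdef, a regulator of mucous differentiation, was lower (0.654 against a mean of 10.7 FPKM), and so were the sums of the duct markers (28.4 against 71.3 and 61.9 FPKM) and of the sublingual markers Muc19 and Smgc (0.0694 against 6.46 and 3.51 FPKM). Their part in the low Dcpp1 and Dcpp2 levels was not tested.

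Because the 3 Dcpp genes are measured in the same library, their shares do not depend on the scaling between samples. Dcpp1 made up 52.3% to 68.0% of the summed Dcpp FPKM for E14.5, 33.6% to 36.0% for E16.5, 40.6% to 42.5% for E18.5, 25.7% to 26.4% for P5, 18.8% to 19.1% for 4wk, and 60.3% to 72.5% for 12wk. The share of Dcpp2 was lowest at E16.5, 1.70% and 2.81%, and highest at 4wk, 39.8% and 37.6%. The share of Dcpp3 was 62.3% and 63.6% at E16.5, and 10.2% and 10.3% at 12wk. From E16.5 to 4wk no age overlapped with another for the shares of Dcpp1 and Dcpp2. The Dcpp3 shares of E18.5 (43.0% and 39.6%), P5 (39.2% and 42.8%) and 4wk (41.4% and 43.2%) overlapped.

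**Figure D3:**
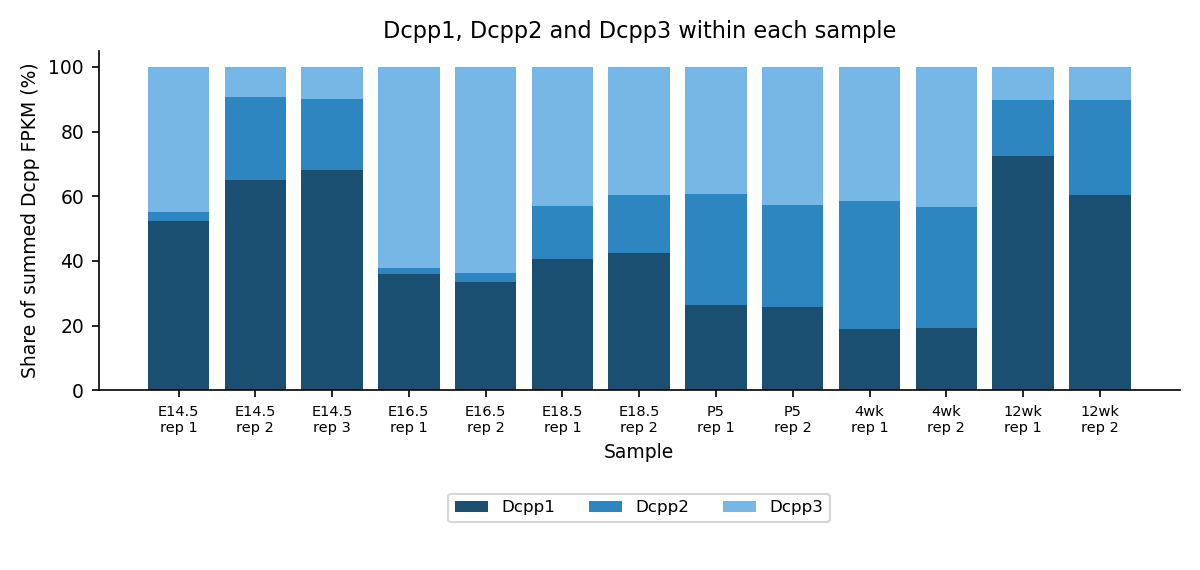
Share of Dcpp1, Dcpp2 and Dcpp3 in their summed FPKM, in percent, as stacked bars for each of the 13 samples. Dcpp1 holds 60.3% to 72.5% in the 12wk samples and 18.8% to 19.1% in the 4wk samples. Dcpp2 holds under 3% in both E16.5 samples and in E14.5 replicate 1.

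Which gene led the mixture depends in part on the windows that can be told apart. As deposited, Dcpp1 had the highest FPKM in 6 samples, Dcpp3 in 7 and Dcpp2 in 0. Dividing each FPKM by the share of 50-base windows not found elsewhere gave Dcpp1 the lead in 7 samples and Dcpp3 in 6. Dividing by the share of windows over 2 mismatches from any other place gave Dcpp2 the lead in the 4 samples of P5 and 4wk. Under these settings Dcpp2 still went from 1.52% or 2.44% in replicate 1 of E16.5 to 37.4% or 49.0% in replicate 1 of 4wk. The order of these genes at P5 and 4wk is therefore uncertain.

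The balance between Bpifa2 and the Dcpp genes changed direction more than once. The ratio of Bpifa2 to the summed Dcpp FPKM was 0.197, 0.0326 and 0.0295 for E14.5, 0.472 and 0.999 for E16.5, 1.23 and 1.26 for E18.5, 0.761 and 0.669 for P5, 0.0255 and 0.0187 for 4wk, and 4.45 and 8.29 for 12wk. At 4wk the deposited Dcpp sum was thus 39.2 and 53.5 times the Bpifa2 level, and at 12wk Bpifa2 was the larger in both libraries. The deposited Dcpp values lack reads from windows shared by the copies, so the size of these ratios depends on that loss. Divided by the share of windows not found elsewhere, Dcpp1, Dcpp2 and Dcpp3 were at 11132, 3610 and 9971 FPKM in E18.5 replicate 1. Together these exceed Bpifa2 there (18019 FPKM), so which was larger at E18.5 is uncertain. At 12wk Bpifa2 stayed the larger with either allowance for windows. Bpifa2 and the Dcpp genes together took 12.9% and 13.6% of the summed FPKM in the P5 samples, 3.47% and 3.55% in those of 4wk, and 0.637% and 5.16% in those of 12wk.

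The counts of members called were set beside those of all 14650 tested genes. A gene was called where its log2 fold change was 1 or more in size with a limma adjusted p below 0.1. From E14.5 to E16.5, 5.15% of tested genes were called, 4.17% higher and 0.983% lower, and of the 5 members in the fit Bpifa2, Bpifb2 and Dcpp3 were called higher (3). From E16.5 to E18.5, 2.94% of tested genes were called, 1.09% higher and 1.85% lower, and all 5 members in the fit were called higher. From E18.5 to P5, 5.04% were called, 2.07% higher and 2.97% lower, and 1 member, Bpifb2, was called lower. From P5 to 4wk 24.3% were called, 2.19% higher and 22.1% lower, and 1 member, Bpifa2, was called lower. From 4wk to 12wk 5.15% were called, 2.68% higher and 2.48% lower, with Bpifa2 called higher (1 member) and Dcpp2 and Dcpp3 called lower (2 members). The Dcpp2 call at this step was lost in 8 of 13 fits with 1 sample left out. Without E14.5 replicate 1, Dcpp2 was also called higher from E18.5 to P5 (2.18, SE 0.72) and Dcpp1 lower from 4wk to 12wk (-2.17, SE 0.54). The members were chosen for such changes, and nothing is read from these counts.

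The age profile of the members was set beside markers of the salivary glands that lie near the submandibular gland. The sublingual mucous markers Muc19 and Smgc summed to 1367 and 2143 FPKM for E16.5, 17792 and 19527 for E18.5, 43010 and 47401 for P5, 151 and 140 for 4wk, and 0.179 and 60.7 for 12wk. Smgc, which the immature submandibular gland also makes, carried almost all of this sum at P5 (42935 and 47357 FPKM), and Muc19 was at 74.9 and 43.3 FPKM. The parotid serous markers Amy1, Cst10 and Prpmp5 summed to 55.1 and 77.9 FPKM for E18.5, 922 and 790 for P5, 22.4 and 14.2 for 4wk, and 938 and 9187 for 12wk. At P5, where Bpifa2 was at 29423 and 29524 FPKM, Amy1 was at 2.86 and 1.95 FPKM and Prpmp5, a proline-rich protein gene, at 821 and 679 FPKM. The parotid sum and Bpifa2 both had a low at 4wk between higher values at P5 and 12wk. The markers of that sum differed. Means at P5, 4wk and 12wk were 103, 7.48 and 1564 FPKM for Cst10 and 750, 0.0489 and 5.93 FPKM for Prpmp5. Those of Amy1 were 2.41, 10.8 and 3492 FPKM, with no low at 4wk. Of the sublingual markers, Muc19 stayed at 103 and 82.3 FPKM at 4wk, where the Dcpp genes also stayed high. Smgc fell from a mean of 45146 FPKM at P5 to 53.1 FPKM at 4wk. The part of neighbouring glands in the member levels was not tested.

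**Figure D4:**
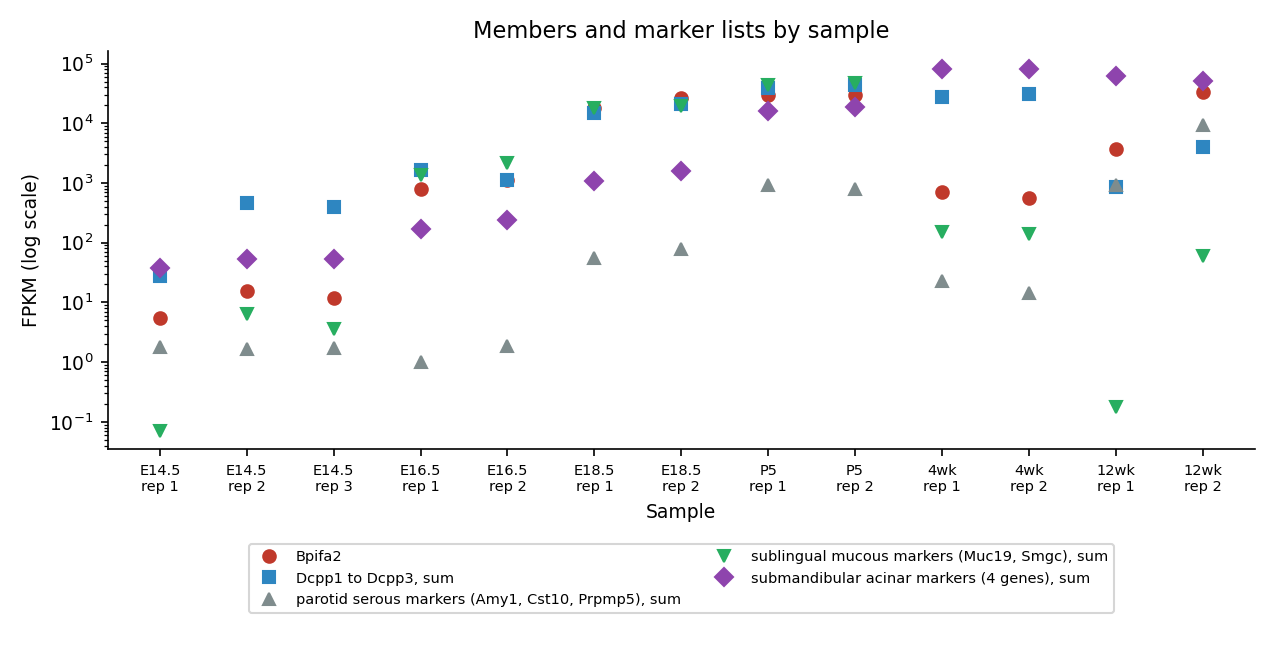
FPKM of Bpifa2, the sum of Dcpp1 to Dcpp3, and the sums of 3 marker lists on a log scale, with 1 point per sample. In 12wk replicate 2 Bpifa2, the Dcpp sum, the parotid sum and the sublingual sum all lie above replicate 1. The submandibular acinar sum (61935 and 50176 FPKM), almost all of it Prol1, does not.

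The 12wk libraries differed for the members and a small group of secreted products. Replicate 2 was above replicate 1 by 8.97 times for Bpifa2, 8.23 times for Dcpp2, 4.84 times for Dcpp3 and 4.01 times for Dcpp1. A level of 10 FPKM was reached by 4531 genes in 1 or both 12wk libraries. Of these, 6 had a larger range on the log2 scale than Bpifa2, 9 than Dcpp2, 12 than Dcpp3 and 16 than Dcpp1. The genes with a larger range than Bpifa2 were BC048546, Smgc, Amy1, the salivary product gene Smr3a, the chitinase gene Chia and the cystatin gene Cst10, all higher in replicate 2. The parotid sum was 9.79 times higher in replicate 2 and the sublingual sum 339 times, from a level of 0.179 FPKM. The duct sum (14350 and 14248 FPKM) was 0.993 times that of replicate 1, and the submandibular acinar sum 0.810 times. The acinar sum was almost all Prol1 at 12wk (mean 55656 FPKM). The part of these differences in the 12wk levels of the members was not tested. Dcpp2 and Dcpp3 at 12wk were below the 4wk level in both libraries, and Dcpp3 by a log2 fold change of -4.88 with replicate 2 as the only 12wk sample and -7.14 with replicate 1.

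**Figure D5:**
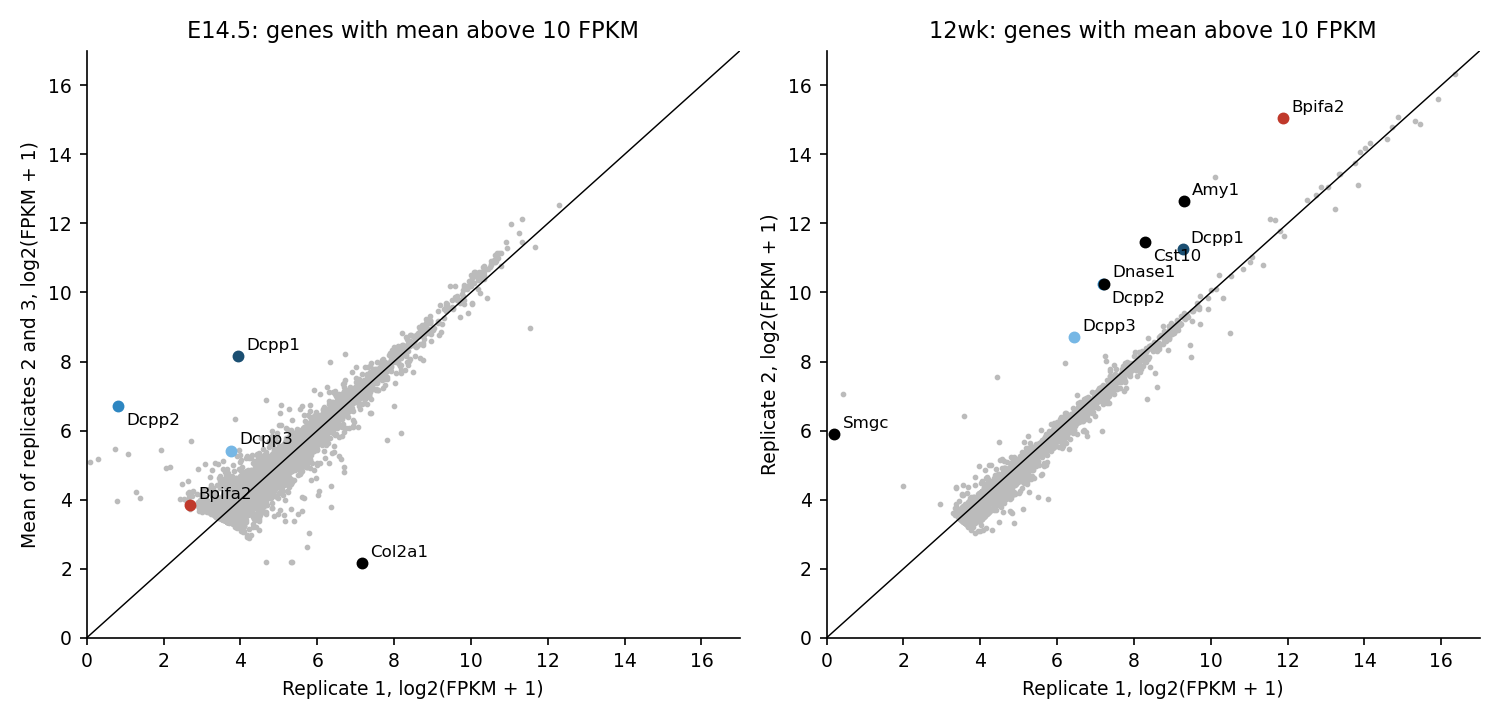
Replicate values as log2(FPKM + 1) for genes with a mean above 10 FPKM over the samples of the age shown. Replicate 1 is set against the mean of replicates 2 and 3 at E14.5, and against replicate 2 at 12wk. Members and other named genes are larger points, and equality is a line. Dcpp1 and Dcpp2 lie far above the line at E14.5, and Bpifa2 and the Dcpp genes lie above it at 12wk beside Amy1, Cst10 and Dnase1.

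Genes with the most similar profile were sought by Pearson correlation of log2(FPKM + 1) over the 13 samples, which share ages and depth, so r is a description. For Bpifa2 these were Gdpd1, a phosphodiesterase family gene (r = 0.98), 1700019D03Rik (0.96) and the growth factor gene Gdf5 (0.95). Their range was much narrower than that of Bpifa2. Gdpd1, for example, had means of 8.56 FPKM at E14.5, 60.5 at P5, 26.9 at 4wk and 67.3 at 12wk. For Bpifb2 they were Spink4, a Kazal-type inhibitor gene with a mean of 70.9 FPKM at E18.5 and 1.78 at P5 (r = 0.97), Mir688 (0.96) and the claudin gene Cldn2 (0.96).

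Each Dcpp gene had other nearest genes. Dcpp1 was nearest to Cldn8, a claudin of tight junctions (r = 0.94), to Dpp4 (0.94), a cell-surface peptidase gene, and to Cd300lg (0.94). Dcpp2 was nearest to Pyhin1 (0.93), Smpdl3b (0.90) and Phf11d (0.90), all at low levels with means of at most 14.3 FPKM. Dcpp3 was nearest to BC048546 (0.97), Lman1l (0.97) and the potassium channel subunit gene Kcne1 (0.97). BC048546 went from 197 FPKM at E16.5 to 4474 at P5, 1569 at 4wk and 66.1 at 12wk. By Spearman correlation 1 of the 3 genes for Bpifa2 (Gdpd1) and 2 of those for Dcpp2 were named again, and 0 for the other members. Among the members, r was 0.96 for Dcpp1 with Dcpp2, 0.92 for Dcpp1 with Dcpp3, 0.86 for Dcpp2 with Dcpp3, and 0.68 to 0.81 for Bpifa2 with the Dcpp genes. Bpifb2 had lower values, 0.44 with Bpifa2, 0.29 with Dcpp1, 0.07 with Dcpp2 and 0.37 with Dcpp3.

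Of 13 other genes of the BPI and lipopolysaccharide-binding protein family that were listed, 4 passed the filter. From P5 to 4wk 2 of them were called lower, Lbp, the lipopolysaccharide-binding protein gene (6.61 to 2.05 FPKM, log2 fold change -1.34, SE 0.36, adjusted p = 0.008), and Bpifb4 (1.27 to 0 FPKM, -1.18, SE 0.17, adjusted p = 0.000255). The median of the 4 was -0.99, beside -0.53 over all tested genes. After median-of-ratios rescaling Lbp was at -0.84 and was no longer called, and Bpifb4 was at -1.13 and still called. In the other 4 comparisons limma called 0 in either direction, with 1, 3, 1 and 0 of the 4 genes at an unadjusted p under 0.05. Of these, Bpifb5 from E14.5 to E16.5 (log2 fold change 0.81), Bpifb4 (0.85) and Bpifb5 (-0.76) from E16.5 to E18.5, and Pltp, the phospholipid transfer protein gene, from E18.5 to P5 (0.80) had an adjusted p below 0.1 but were under the threshold on size. Pltp had means between 6.26 and 11.7 FPKM.

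Other secreted salivary products moved in both directions. Of 20 genes that passed the filter, 7 rose and 4 fell from E14.5 to E16.5, 13 rose and 0 fell from E16.5 to E18.5, 8 rose and 1 fell to P5, 8 rose and 6 fell to 4wk, and 8 rose and 4 fell to 12wk. Their median log2 fold changes over these steps were 0.56, 2.04, 1.34, 0.23 and -0.31, beside 0.004, -0.14, -0.12, -0.53 and 0 over all tested genes. Over these steps 1, 3, 1, 1 and 3 of the calls changed in at least 1 fit with a sample left out. This list and those of BPI family genes and regulators were chosen with earlier results of these data known. Their counts, medians and adjusted p are therefore read as a description. Smgc rose from E14.5 to E16.5 (log2 fold change 9.04, SE 1.24, adjusted p = 0.000808) and fell from P5 to 4wk (-9.71, SE 1.36, adjusted p = 0.000178). The proline-rich protein genes Prpmp5 (750 to 0.0489 FPKM) and Prb1 (212 to 0.106 FPKM) also fell from P5 to 4wk, when Crisp3, a cysteine-rich secretory protein gene, rose from 17.7 to 12126 FPKM. From 4wk to 12wk, with Bpifa2 higher, Amy1 (log2 fold change 7.41, SE 0.73, adjusted p = 0.000114), Dnase1 (7.11), Chia (10.8) and Smr3a (11.4) rose, all 4 of which were also higher in 12wk replicate 2.

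Of 11 regulators of acinar and secretory cells, 6 rose and 0 fell between E14.5 and E16.5. Over all tested genes 4.17% were called higher and 0.983% lower. The median log2 fold change was 1.04 over the list and 0.004 over all tested genes. The calls of Xbp1 and Creb3l1 at this step were each lost with 1 E16.5 sample left out. The largest changes were those of Bhlha15, a factor of secretory acinar cells (3.32 to 43.7 FPKM, log2 fold change 3.56, SE 0.44, adjusted p = 0.000407), and Spdef (7.32 to 58.6 FPKM, 3.29, SE 0.65, adjusted p = 0.0066), and Ehf and Etv1 rose by 1.45 each on the log2 scale. In the later comparisons Etv1 rose once more to E18.5 (1.11, adjusted p = 0.0265) and Sox9 was called lower from P5 to 4wk (-1.31, adjusted p = 0.00238). The Etv1 call at E18.5 was lost in 3 of 13 fits with 1 sample left out. After rescaling Sox9 was at -0.70 from P5 to 4wk and not called, and Bhlha15 (1.66) and Elf5 (1.24) were called higher instead. From E18.5 to P5 and from 4wk to 12wk limma called 0 regulators, with 1 of 11 at an unadjusted p under 0.05 in each. At the latter step the list had a median log2 fold change of -0.06 over the 11 genes beside 0 over all tested genes.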

How the data were processed

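The authors mapped 50-base single-end reads to mm9 with TopHat2 2.0.13 and Bowtie2 2.2.6, counted them on UCSC genes with featureCounts without reads that aligned to several places or genes, and deposited FPKM per gene and sample. The authors describe normalization with DESeq2 1.10.1. Median-of-ratios factors computed from the FPKM spanned 0.617 to 1.38, so the values appear scaled to each sample's total. Counts were not analysed here. Low FPKM values are whole multiples of 1 read, which gave the gene lengths used (Bpifa2 961 bases, Dcpp1 617, Dcpp2 611, Dcpp3 610) and the reads. Intervals from reads cover counting error only.

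Samples were grouped by the age in the labels. The 14650 genes that reached 1 FPKM in any sample were fitted as log2(FPKM + 1) with limma 3.58.1 (R 4.3.3; 6 age groups, 13 samples, mean-variance trend, Benjamini-Hochberg adjustment over all tested genes). A call needed an adjusted p below 0.1 and a log2 fold change of 1 or more in size. In simulated data for P5 against E18.5 with 14650 genes, 97.5% of 200 genes changed 4-fold were recovered and 9 unchanged genes were called. The changed genes were drawn from a middle range of mean levels. The share recovered says little on genes with a large SE, such as Dcpp2 at this step (log2 fold change 2.18, SE 1.58, not called). P-values measure the spread between samples, which for embryos were pools. Replicate numbers were not taken to pair samples across ages. The correlation of deviations between equal numbers had a mean of -0.016 and ran from -0.352 to 0.273. The mean for different numbers, 0.012, follows from it, because deviations within an age sum to 0, and is no second check.

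Named genes were the 7 members, for each member in the fit the 3 genes with the highest Pearson correlation, at most 4 called genes of each list with the largest change, genes within 200 kb of a member, and markers. Genes named for differences between replicates were chosen after their values were seen. The members and lists were chosen with earlier results of these data known. Coordinates are GENCODE on mm9, and Bpifa2 is listed there as Bpifa2e. Windows were compared with places found by BLAST 2.17.0, and pairs aligned with Biopython 1.88. Promoters are RefSeq on GRCm38.p6. Shares by windows were added after the data were seen.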

Additional observations from a re-analysis of the deposited data

How the results depend on the processing

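The number of genes called stayed within 1.5 times under no filter on low values, a filter of 1 FPKM in 2 samples, an adjusted p below 0.05, no variance trend and the replicate block. With a pseudocount of 0.1 it was 1183 in place of 755 from E14.5 to E16.5, 1163 in place of 738 from E18.5 to P5, 5767 in place of 3556 from P5 to 4wk, and 1658 in place of 755 from 4wk to 12wk. With median-of-ratios rescaling it was 2211 from P5 to 4wk, the median change of all tested genes moved from -0.53 to -0.06, and the share of higher calls moved from 9.03% to 42.2% there, from 37% to 53% for E18.5 against E16.5, and from 41.1% to 57% for P5 against E18.5. With 1 sample left out, the counts were 617 to 1472 from 4wk to 12wk, the highest without replicate 2 of 4wk. An age left with 1 sample was assumed to vary like the others.

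The log2 fold changes of Bpifb2 depend on the pseudocount because most of its values are under 1 FPKM. With 0.1 they were 4.69, 1.92, -4.23, -2.76 and 0.34 over the 5 steps in order, and with rescaling the first was 1.77. Rescaling gave Dcpp3 0.22 from P5 to 4wk. With 1 sample left out, the first step ranged from 1.69 to 2.40 for Bpifb2, 0.74 to 2.89 for Dcpp1 and -1.73 to 1.32 for Dcpp2, the second from 1.30 to 2.02 for Bpifb2, and 12wk against 4wk from 2.56 to 5.73 for Bpifa2 and from -7.14 to -4.88 for Dcpp3. The call of Dcpp2 from 4wk to 12wk was lost with a pseudocount of 0.1 and in 8 of 13 fits with a sample left out. Calls of Dcpp1 (3 fits), Dcpp2 (1) and Dcpp3 (1) from E16.5 to E18.5 were lost with a sample of those ages left out. Rescaling ended 4 list calls (Lbp and Sox9 from P5 to 4wk, Scgb2b26 from E14.5 to E16.5, Agr2 from E18.5 to P5) and added 3 (Muc19, Bhlha15 and Elf5, higher from P5 to 4wk). The cause was not tested.

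The replicate number was also tried as a block, although the numbers are not known to pair the samples. The counts over the 5 steps were then 751, 422, 731, 3559 and 741, and the step from E14.5 to E16.5 of Dcpp1 was called (2.80, SE 0.94). Depth limits the 4wk samples most, where 1 read on 1 kilobase was worth 0.126 and 0.172 FPKM.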

Other observations

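Most tested genes around the Dcpp genes were highest at other ages. Within 200 kb of a Dcpp gene 21 other genes were listed, and 13 of them reached 1 FPKM. Of these 13, 11 had their highest mean in the E14.5 or E16.5 samples, 1 in those of E18.5 and 1 at P5, and each Dcpp gene was highest at P5. Over all tested genes the median log2 fold change was -0.14 to E18.5, -0.12 to P5 and -0.53 to 4wk. The share of all tested genes highest at E14.5 or E16.5 was not computed, so nothing is read from this tally. After median-of-ratios rescaling, tried on this tally after the data were seen, 10 of the 13 were highest at E14.5 or E16.5, 2 at 4wk and 1 at 12wk, with Dcpp1 highest at P5 and Dcpp2 and Dcpp3 at 4wk. The proteases Prss33 and Prss22 had means of 3.58 and 1.69 FPKM at E14.5 and 0.182 and 0 FPKM at 4wk. The widely expressed gene Tceb2 had means of 299.0 FPKM at E14.5 and 137 FPKM at 4wk, and Srrm2 of 56.5 and 22.9 FPKM. The genes for spermine-binding protein and its relative, Sbp and Sbpl, which lie after Dcpp3, stayed under 1 FPKM in all samples, with highest values of 0.493 and 0.976 FPKM in E16.5 replicate 1.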
